A study of Mus musculus with 2 samples.

Results

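The 9 genes described here encode ligands of the vascular endothelial growth factor (VEGF) family (Vegfa, Vegfb, Vegfc and Pgf), ligands of the platelet-derived growth factor (PDGF) family (Pdgfa, Pdgfb and Pdgfc) and the neuropilin co-receptors (Nrp1 and Nrp2). They were taken by gene name from a table of 54532 genes, and each name matched 1 row. The study sequenced poly(A) RNA of the mouse mammary carcinoma line 4T1, and its labels name 1 wild-type and 1 Cd28 knockout sample. All values below are from the knockout sample. A second column of counts has a heading that appears on no sample and was left aside, so wild-type cells were not analysed here, and none of the values is an effect of the knockout. Whether the knockout cells were 1 clone or a pool is not given in the sources used here.

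VEGF ligands are secreted dimers that bind receptor tyrosine kinases on endothelial cells and drive the growth of blood and lymphatic vessels. PDGF ligands are related dimers that act on mesenchymal cells such as pericytes and fibroblasts through receptors of their own. Neuropilins have a short intracellular part without kinase activity. They bind class 3 semaphorins and heparin-binding forms of VEGF, and pass signals on through plexins or the VEGF receptors. In tumours the carcinoma cells are a known source of these ligands, while most of the receptors are known from cells of the stroma.

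Vegfb and Pgf encode ligands of the same receptor and are related in sequence. Each has a coding exon of 197 bases, the exon 3 of its annotated coding transcripts, which carries most of the cystine-knot domain that holds the dimer together. The exons are shown because these genes stand at opposite ends of the levels given below. They are printed 5′ to 3′ on the minus strand (mm10, GENCODE vM21), with capitals where both genes carry the same base. Vegfb lies at chr19:6986290-6986486 and Pgf at chr12:85171660-85171856.
Vegfb: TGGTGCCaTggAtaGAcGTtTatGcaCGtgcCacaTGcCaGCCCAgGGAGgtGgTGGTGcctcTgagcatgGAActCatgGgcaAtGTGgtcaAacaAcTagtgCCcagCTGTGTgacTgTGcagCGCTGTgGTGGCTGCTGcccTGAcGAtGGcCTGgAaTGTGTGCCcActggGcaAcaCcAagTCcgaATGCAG
Pgf: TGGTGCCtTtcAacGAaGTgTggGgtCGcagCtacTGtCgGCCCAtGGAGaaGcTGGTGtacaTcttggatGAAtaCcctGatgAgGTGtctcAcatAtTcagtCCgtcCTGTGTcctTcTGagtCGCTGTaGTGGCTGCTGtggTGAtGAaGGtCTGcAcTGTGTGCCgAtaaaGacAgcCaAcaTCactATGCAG
The exons were identical at 108 of 197 positions (54.8%), and the longest run of identical bases was 10. Over the whole reference transcript, every 50-base stretch of Vegfa, Vegfb and Pgf was absent from the transcripts of other genes. Reads of at least 50 bases that match these reference transcripts without error therefore cannot be exchanged between the genes. Among the other members, 97.1% of the 50-base stretches of Pdgfc and 99.1% of those of Nrp2 were absent from other genes' transcripts. Pdgfa, Pdgfb, Vegfc and Nrp1 had 100%. The parts of the gene models outside the reference transcripts were not checked.

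Splicing decides which forms of Vegfa carry the basic stretches that hold on to heparan sulfate. The exons concerned are shown because the deposited count sums all forms. The first is 72 bases long (exon 6 of the longest coding transcript, chr17:46022277-46022348, minus strand), the second 132 bases (exon 7, chr17:46020991-46021122), and the last stretch holds the final coding bases in exon 8 (chr17:46018858-46018879), with the last codon before the stop in capitals.
Vegfa exon 6: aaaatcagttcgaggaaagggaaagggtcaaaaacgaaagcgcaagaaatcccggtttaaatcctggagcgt
Vegfa exon 7: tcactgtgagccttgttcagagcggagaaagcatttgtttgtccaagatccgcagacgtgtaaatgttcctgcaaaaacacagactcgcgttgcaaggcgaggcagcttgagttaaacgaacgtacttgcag
Vegfa last coding bases: atgtgacaagccaaggCGGtga
Exons 6 and 7 encode basic, heparin-binding stretches, and CGG is an arginine codon: neuropilins are known to bind a C-terminal arginine of the ligand. Of the 8 annotated coding transcripts of Vegfa, 2 held both exons whole, 1 held exon 7 with a shortened exon 6, 1 held exon 6 alone, 2 held exon 7 alone and 2 held neither. All 8 ended in the same coding bases. Which of these forms the reads came from cannot be told from a gene count.

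**Figure D1:**
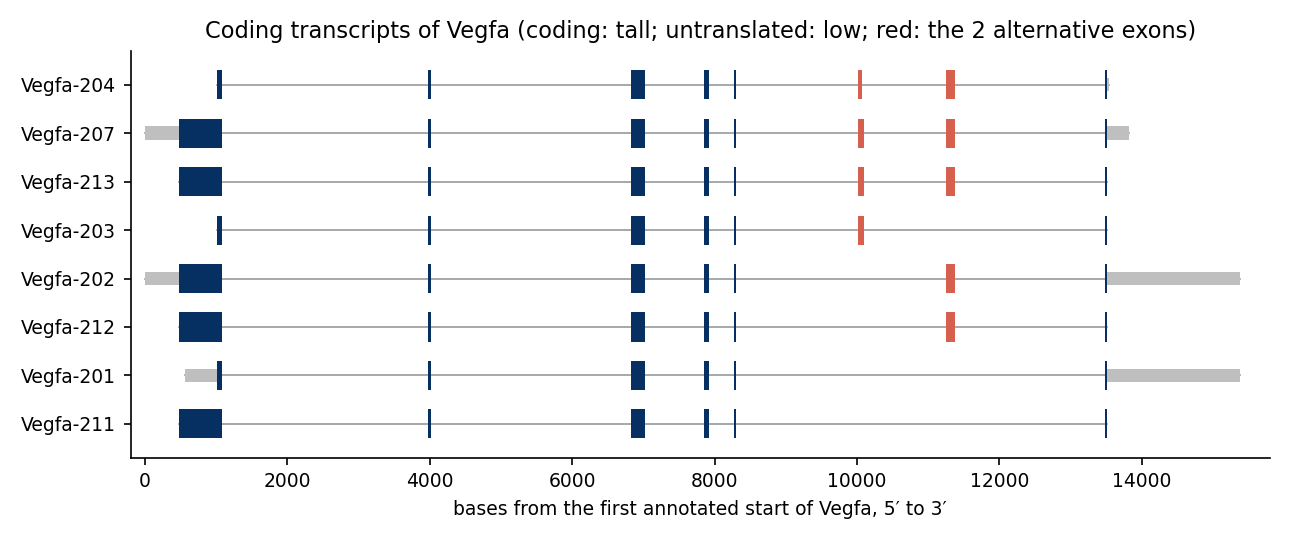
The 8 annotated coding transcripts of Vegfa, 1 per line, drawn by distance in bases from the first annotated start (horizontal axis). Tall boxes are coding and low grey boxes untranslated, and the red boxes are exons 6 and 7, which both appear in the 3 transcripts at the top and in neither of the 2 at the bottom.

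Pdgfa also has forms with different ends. The long form closes with an exon that encodes the basic retention stretch, known to keep PDGF at the cell surface and in the matrix, and the short form lacks it. The final coding bases of each are shown with the stop codon in capitals, for the long form at chr5:138978635-138978690 and for the short form at chr5:138977217-138977227, both on the minus strand.
Pdgfa long form: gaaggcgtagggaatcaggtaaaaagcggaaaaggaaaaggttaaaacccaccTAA
Pdgfa short form: atgtgaggTGA
The annotation gives the long end to 1 of the 4 coding transcripts and the short end to 3, and the deposited count sums them.

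The library held 15565990 counted reads, 96.2% of them on protein-coding genes. A level is stated in CPM, the reads of a gene per 1000000 counted reads, with an exact Poisson 95% interval. The intervals cover counting error only, since reads without molecular identifiers are not independent molecules and the library has no replicate. To set genes against each other, reads per base of the deposited gene length were rescaled so that all genes add up to 1000000 (TPM). The targeted gene, Cd28, had 8 reads, or 0.514 CPM (0.222 to 1.01), and without a wild-type level this does not check the label. Epithelial markers of the line were present: Krt18 and Krt8, keratins of simple epithelium, had a TPM of 2183 and 1005, and Cdh1, E-cadherin, had 268.

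All 9 genes were detected at 10 reads or more, the case for 52.2% of the 22046 protein-coding genes in the table. Detected protein-coding genes had a median TPM of 24.4, and 7 of the 9 lay above it, against 26.1% of protein-coding genes. That share counts undetected genes too. Of the 11497 detected protein-coding genes, 5748 lay above the median by definition. Together the 9 genes held 18750 reads, or 1205 CPM (1187 to 1222), which is 0.120% of the library. Nrp2 alone held 47.4% of these reads. The TPM spanned 138-fold from Vegfb down to Pgf.

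**Figure D2:**
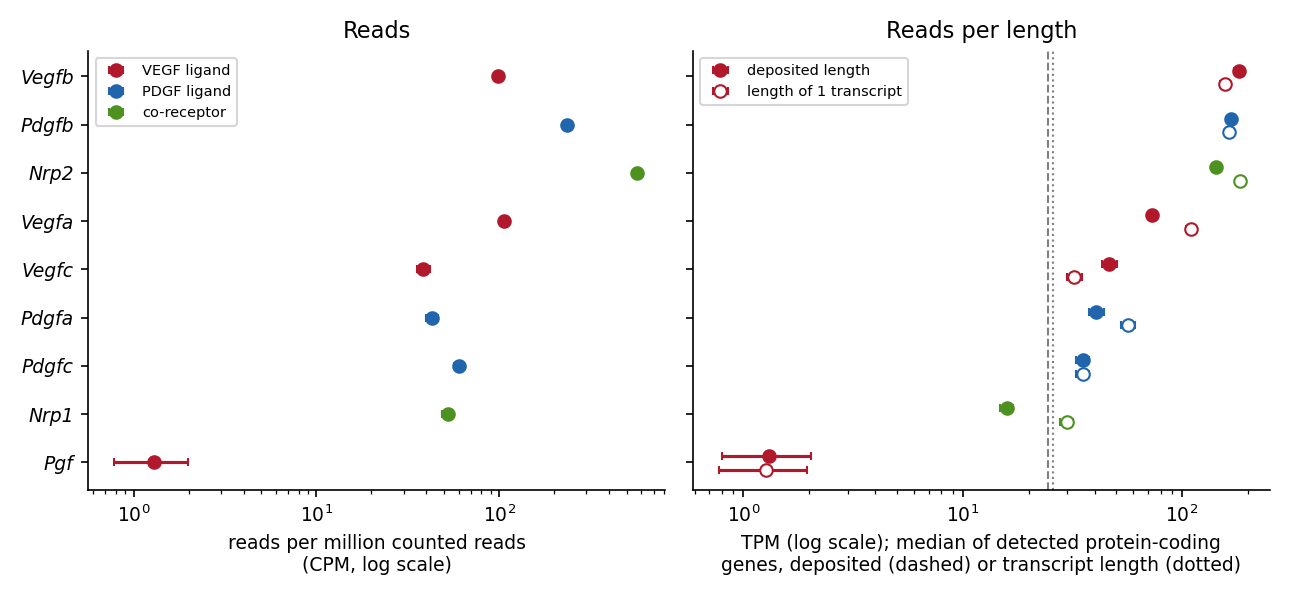
CPM (left) and TPM (right) of the 9 genes in the knockout library, both on log axes, with exact Poisson 95% intervals (hidden by the symbol where narrow). Filled symbols use the deposited length and open symbols the length of 1 reference transcript; Nrp2 is the highest by reads, and Pgf is the lowest on every scale.

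Among the VEGF ligands, Vegfb was the highest per length. Vegfb, which encodes a ligand of VEGF receptor 1 (ENSMUSG00000024962, chromosome 19, 6982473 to 6987651, minus strand), had 1530 reads, or 98.3 CPM (93.4 to 103). Its TPM was 182 (173 to 191), which placed it at percentile 94.8 and at rank 602 of the 11497 detected protein-coding genes.

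Vegfa encodes the main driver of blood vessel growth and the ligand of VEGF receptors 1 and 2 (ENSMUSG00000023951, chromosome 17, 46016993 to 46032369, minus strand). It had 1647 reads, or 105.8 CPM (100.8 to 111), close to the reads of Vegfb. Its gene model is longer (4285 bases against 1605), so its TPM was 73.3 (69.8 to 76.9), at percentile 82.3. Per length, Vegfb was 2.48 times as high as Vegfa (exact binomial 95% interval 2.31 to 2.66).

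Vegfc encodes the ligand of VEGF receptor 3 that drives lymphatic growth (ENSMUSG00000031520, chromosome 8, 54077606 to 54187096, plus strand). It had 600 reads, or 38.5 CPM (35.5 to 41.8), and a TPM of 46.7 (43.0 to 50.6) at percentile 70.8. Per length, Vegfa was 1.57 times as high as Vegfc (1.43 to 1.73). With the length of 1 reference transcript in place of the merged exons, the TPM of Vegfa was 110.1 (104.8 to 116) and the ratio 3.41 (3.10 to 3.75). The reads were still those of all merged exons. The reference transcript of Vegfa holds 1973 of the 4285 bases, so both values may be too high.

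Pgf, placental growth factor, a further ligand of VEGF receptor 1, stood far below the rest (ENSMUSG00000004791, chromosome 12, 85166635 to 85177790, minus strand). Its 20 reads gave 1.28 CPM (0.785 to 1.98) and a TPM of 1.31 (0.802 to 2.03), at percentile 5.40 (2.91 to 8.23 over the counting interval). Vegfa was 55.8 times as high per length (36.0 to 91.6). Vegfb, with which it shares its receptor and the related exon printed above, was 138 times as high per length (89.3 to 227).

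Among the PDGF ligands, Pdgfb was the highest per length. It encodes the B chain, which binds both PDGF receptors and recruits pericytes to vessels (ENSMUSG00000000489, chromosome 15, 79995874 to 80014977, minus strand). With 3644 reads it reached 234.1 CPM (227 to 242) and a TPM of 167 (162 to 172), at percentile 94.2. Pdgfb was 4.10 times as high as Pdgfa per length (3.78 to 4.46) and 4.74 times as high as Pdgfc (4.41 to 5.09).

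Pdgfa encodes the A chain, a ligand of PDGF receptor alpha (ENSMUSG00000025856, chromosome 5, 138976014 to 138997370, minus strand). It had 666 reads, or 42.8 CPM (39.6 to 46.2), and a TPM of 40.7 (37.7 to 43.9) at percentile 66.5. An antisense gene on the opposite strand, 6330403L08Rik with 111 reads, covers 26.1% of its merged exon length. The strand setting of the counting is not given in the sources used here, so reads of Pdgfa and this gene may not be told apart in that stretch. Every ratio with Pdgfa carries the same limit, which its counting interval does not cover.

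Pdgfc encodes a ligand made as a latent precursor, from which proteases release the growth factor domain (ENSMUSG00000028019, chromosome 3, 81036416 to 81214040, plus strand). It had 941 reads, or 60.5 CPM (56.7 to 64.4), more than Pdgfa. After correction for its longer gene model its TPM was 35.3 (33.0 to 37.6), at percentile 62.1, and Pdgfa was 1.15 times as high (1.04 to 1.28).

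The co-receptors were unequal. Nrp2, best known from lymphatic endothelium and as a receptor of Sema3f and VEGF-C (ENSMUSG00000025969, chromosome 1, 62703285 to 62818695, plus strand), had 8887 reads, or 571 CPM (559 to 583). Its TPM of 143 (140.1 to 146) lay at percentile 92.8. Nrp1, the receptor of Sema3a and of heparin-binding VEGF-A (ENSMUSG00000025810, chromosome 8, 128358604 to 128503363, plus strand), had 815 reads, or 52.4 CPM (48.8 to 56.1), and a TPM of 15.9 (14.8 to 17.0) at percentile 37.1. Per length Nrp2 was 9.01 times as high as Nrp1 (8.39 to 9.69). Nrp1 and Pgf were the members below the median of detected genes, and with the length of 1 transcript in place of the merged exons Pgf alone was.

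**Figure D3:**
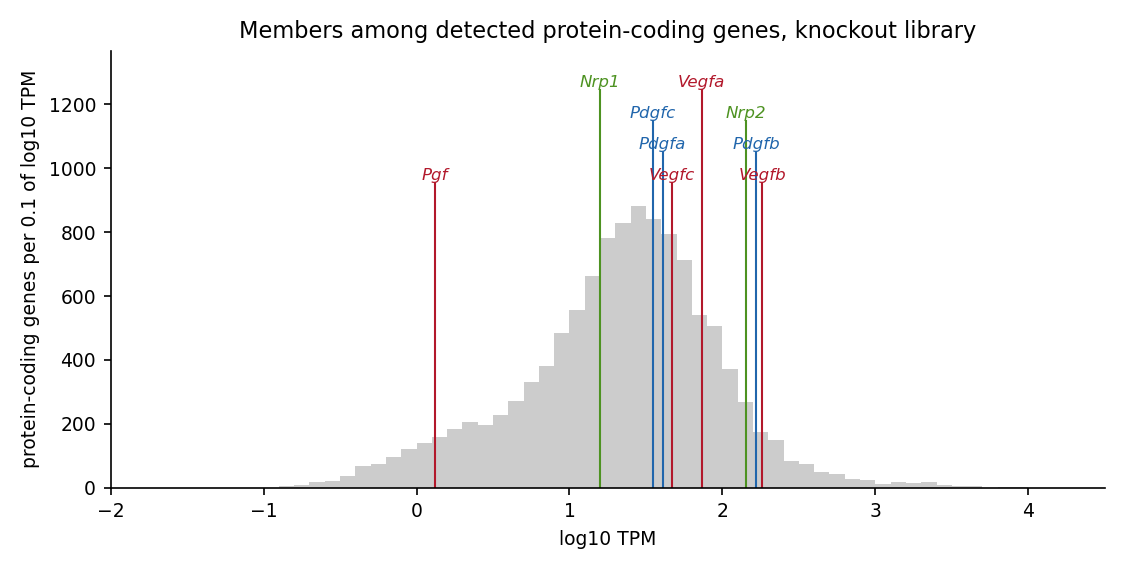
Distribution of log10 TPM over the 11497 detected protein-coding genes of the knockout library (grey bars, number of genes per bin of 0.1), with the 9 genes as coloured lines (red VEGF ligands, blue PDGF ligands, green co-receptors). Vegfb, Pdgfb and Nrp2 stand at the right, at percentiles 92.8 to 94.8, and Pgf at the left, at percentile 5.40.

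In order of TPM the genes ran Vegfb, Pdgfb, Nrp2, Vegfa, Vegfc, Pdgfa, Pdgfc, Nrp1 and Pgf. The ratio of each gene to the next had an interval above 1 in all 8 neighbouring pairs, from 1.09 for Vegfb over Pdgfb (1.02 to 1.16) to 12.1 for Nrp1 over Pgf (7.78 to 19.9). These intervals hold no spread between cultures, and the close steps depend on the gene length used. With the length of 1 reference transcript, Nrp2 came first with a TPM of 184 (181 to 188), ahead of Pdgfb with 163 (158 to 169) and Vegfb with 157.5 (149.7 to 166). The reads on that scale were still those of all merged exons. A gene whose reference transcript leaves out much of them can come out too high. Nrp2 has 6357 of 11842 bases in it and Nrp1 3597 of 9785, while Vegfc has 2449 on both scales. The step of Vegfc over Pdgfa turned around: Pdgfa had a TPM of 56.9 (52.7 to 61.4) against 32.3 (29.8 to 35.0) for Vegfc, 1.76 times as high (1.58 to 1.97). Pdgfc, with 35.2, also came before Vegfc. On that scale the interval of the ratio included 1 for Pdgfb over Vegfb (0.976 to 1.10), Pdgfc over Vegfc (0.984 to 1.21) and Vegfc over Nrp1 (0.971 to 1.20). Nrp1 had a TPM of 29.9 (27.9 to 32.0) there, above the median of 26.0 on that scale, because its deposited length is 2.72 times that of its reference transcript. The steps that kept their direction on both scales included Vegfb over Vegfa (1.43, interval 1.33 to 1.53, with the transcript length), Pdgfb over Pdgfa (2.87, 2.64 to 3.12), Nrp2 over Nrp1 (6.17, 5.74 to 6.64) and Vegfa over Pgf (86.8, 56.0 to 143).

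Of the 5 kinase receptors of these ligands, 3 had 0 reads, and both others lay below the median TPM. Of the VEGF receptors, Flt1 (VEGF receptor 1), which binds Vegfa, Vegfb and Pgf, had 413 reads and a TPM of 5.83 (5.28 to 6.42), at percentile 17.9. Kdr (receptor 2) and Flt4 (receptor 3) were both at 0 reads, for which the one-sided limit is 3 reads or 0.193 CPM and the two-sided interval ends at 0.237 CPM. Of the PDGF receptors, Pdgfra, which binds the A, B and C chains, had 839 reads and a TPM of 15.96 (14.9 to 17.1), at percentile 37.2, and Pdgfrb had 0 reads. By reads alone Pdgfra was not low: its 53.9 CPM was above the median of 37.7 CPM and above Vegfc and Pdgfa. With the length of 1 reference transcript Flt1 had a TPM of 7.90 (7.16 to 8.70) and Pdgfra 16.2 (15.1 to 17.3), both still below the median of 26.0 on that scale. Among the members, each ligand except Pgf had a higher TPM than either detected receptor with both lengths. The remaining ligands of the families were near the limit, with 6 reads on Vegfd and 0 on Pdgfd. Pdgfrl, a PDGF receptor-like gene, had a TPM of 16.8.

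Neuropilins also bind semaphorins and work with plexins. Counts in this and the following lists stand beside 52.2% detected and 26.1% above the median over all protein-coding genes. Of 7 class 3 semaphorins, 3 were detected and 1 lay above the median TPM: Sema3f, a ligand of Nrp2, had 118 (114 to 122), followed by Sema3e with 20.7 and Sema3b with 8.98. Sema3a, a ligand of Nrp1, and Sema3c had 0 reads. The list of 9 plexins was not limited to known partners of neuropilins. Of them, 5 were detected and 4 lay above the median. The highest were Plxnb2 with a TPM of 160, Plxna1 with 87.5 and Plxnd1 with 35.5, whereas Plxna2 had 0 reads. Nrp2 and Sema3f, a known pair of receptor and ligand, both lay above the median TPM. All 12 genes in a list of intracellular adaptors and signalling enzymes of neuropilins and growth factor receptors were detected, and 10 exceeded the median. Gipc1, which binds a neuropilin tail, had the highest TPM of that list at 163, before Crk with 159 and Ptpn11 with 116. Annotated coding transcripts of Nrp2 have different ends, with 278 or 302 coding bases in the last exon. Which tail the Nrp2 reads encode cannot be told from a gene count.

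Several members are activated by cleavage. A list of 11 protease and cofactor genes was not limited to enzymes known to activate these members. In it, 8 reached 10 reads and 4 were above the median. The highest per length were Plau, the urokinase gene (TPM 199.8), the gelatinase gene Mmp9 (80.7) and Furin, a convertase that cuts precursors of VEGF-C and of the PDGF A and B chains (59.2). Pcsk5 and Adamts3, the protease that matures VEGF-C, had 0 reads. Chosen after their values were seen, Ccbe1, the cofactor of that protease, had 977 reads and a TPM of 19.6. Plat, which cleaves PDGF-C, was chosen likewise and had 289 reads and a TPM of 8.83. St14, a further protease gene of the list and also chosen so, had 1964 reads and a TPM of 49.0, above the median. Which of the listed proteases act on PDGF-C in these cells was not tested. Of 14 genes for heparan sulfate, the sugar chain that retains the basic forms shown above, 12 were detected and 9 exceeded the median. Gpc1 (glypican) had a TPM of 324, Sdc4 (syndecan) 181 and the sulfotransferase gene Hs6st1 135, and Hs6st2 had 0 reads.

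Vegfa is a classic target of hypoxia-inducible factors. Of 10 genes of that pathway 8 were detected and 7 exceeded the median. Egln1, a prolyl hydroxylase that marks the factors for degradation, had a TPM of 107, Hif1a 51.7 and Egln2 38.9. Epas1, which encodes the HIF-2 alpha subunit and was chosen after its value was seen, had 3 reads.

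**Figure D4:**
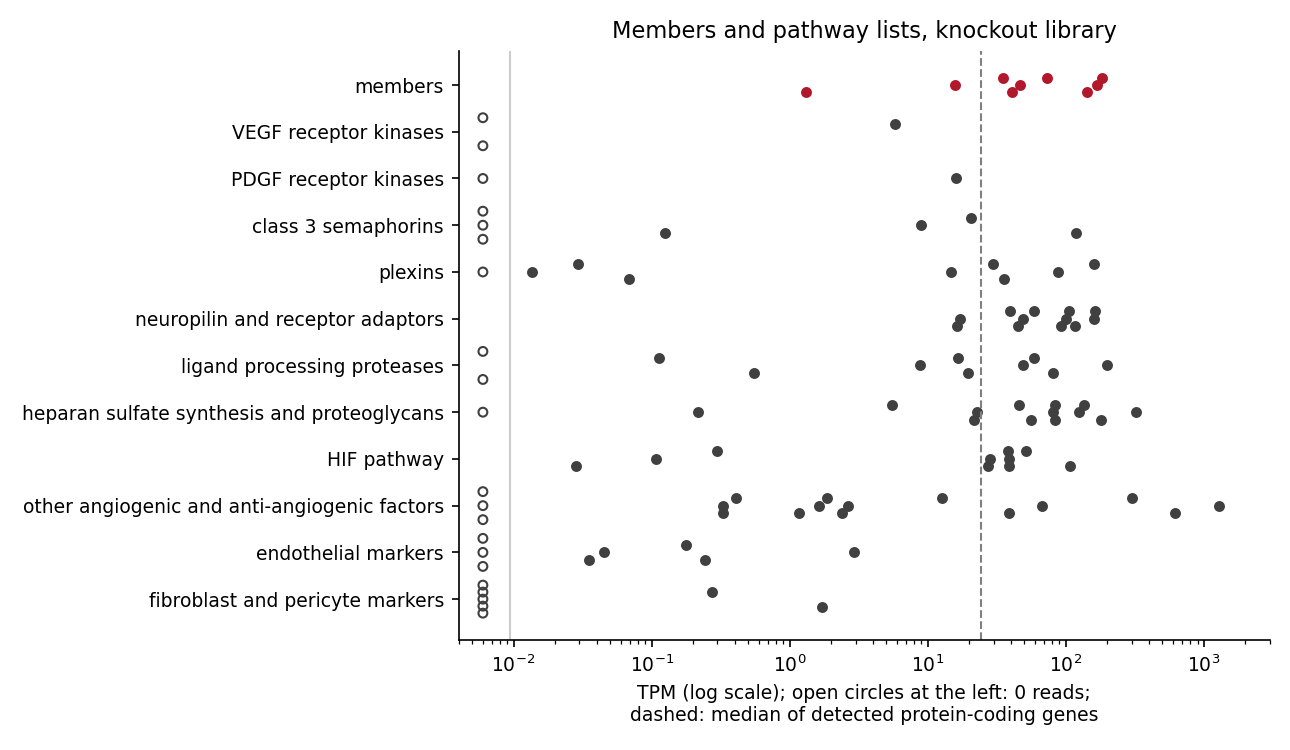
TPM (log axis) of the 9 genes (red) and of each gene in 11 pathway and marker lists (dark), 1 list per line, with the median of detected protein-coding genes at 24.4 (dashed) and genes with 0 reads as open circles at the left. The members lie mostly to the right of the dashed line, while the VEGF and PDGF receptor kinases and the endothelial and fibroblast markers all lie to its left.

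Vessel and stroma cells make or receive several of these factors, so their markers are given beside the levels. Of 8 endothelial markers 2 were detected, Egfl7 with a TPM of 2.93 and Vwf with 0.178, while Tek had 6 reads and Kdr and Pecam1 had 0. Of 7 fibroblast and pericyte markers 2 were detected, Col1a1 with 1.71 and Cspg4 with 0.272, and Col3a1 and Dcn had 0 reads. Of 6 leukocyte and platelet markers 0 reached 10 reads; Ppbp had 7, Itgam 1, and Adgre1 and Cd3e 0. The summed TPM was 3.43 for the endothelial list, 1.99 for the fibroblast and pericyte list and 1.27 for the leukocyte and platelet list, against 303 for the 4 VEGF ligands and 243 for the 3 PDGF ligands. Flt1 and Pdgfra, which endothelial cells and fibroblasts also express, are not in these lists; with them the sums were 9.26 for the endothelial and 17.9 for the fibroblast and pericyte list. The part of other cells in the members' levels was not tested.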

How the data were processed

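Per the labels' protocols, poly(A) RNA was fragmented, copied with random hexamers and amplified. The authors deposited whole-number counts of reads per gene, not normalized, with gene positions and lengths. The tools named in the submitters' processing notes are featureCounts 1.5.0-p3, HISAT2 2.0.5 and CASAVA, and the build is mm10. Which annotation and strand setting were used, and how reads with several matches were treated, is not given in the sources used here. The position and merged exon length of all 9 genes equalled those of GENCODE vM21 (GRCm38), from whose transcripts the printed sequences were read. Table coordinates count from 1. There was 1 other column of per-sample values, which was not used. The library had 15565990 counted reads.

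CPM, TPM, exact Poisson intervals and exact binomial (Clopper-Pearson) intervals of ratios, given the summed reads of a pair, were computed with Python 3.11.15, numpy 2.4.6, pandas 2.3.3 and scipy 1.17.1. The intervals were run on counts simulated from the Poisson model that they assume. This checks the computation only, not whether sequenced reads follow that model. Percentiles rank a gene's TPM among the detected protein-coding genes (10 reads or more). The reference transcript of a gene is the coding one with the longest coding sequence. Reads divided by its length were still those of all merged exons. With 1 library no test was made. The genes and lists were chosen with earlier results of these data known. Genes named beside the members are every VEGF and PDGF receptor kinase, up to 3 genes per list with the highest TPM, up to 2 with 0 reads in alphabetical order, and Cd28. Exceptions, chosen after their values were seen, are Ccbe1, Plat, St14 and Epas1. The gene 6330403L08Rik is named because it overlaps Pdgfa.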

Additional observations from a re-analysis of the deposited data

How the results depend on the processing

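Knockout was not compared with wild type, for which no library was analysed here. No paired analysis was possible because only the knockout library entered. With 1 library there was none to leave out, and variation between cultures was not measured. At least 1, 3 or 100 reads in place of 10 left 9, 9 and 8 members detected, and between 7 and 8 members exceeded the median under the 5 alternatives run. The summed level of 1205 CPM became 1252 over protein-coding reads only and 1487 without the 100 genes with the most reads, since a smaller total raises every CPM alike (1.04 and 1.23 times); without mitochondrial genes it stayed inside its counting interval. With the length of 1 reference transcript 5 of 9 members changed place in the order, and with the deposited length minus 250 bases 0 did. The ratios were recomputed by a choice made after seeing the data: with the transcript length, Vegfb over Vegfa became 1.43, Nrp2 over Nrp1 6.17 and Pdgfb over Pdgfa 2.87, and with the shortened length Vegfb over Vegfa became 2.77. The receptor TPMs and the marker sums with Flt1 or Pdgfra were also added after seeing the data. Of these 3 ratios and that of Vegfa over Pgf, the other 4 values stayed inside their intervals. With the transcript length Vegfa over Vegfc became 3.41, and Vegfc over Pdgfa turned to 0.568. Depth limits Pgf, whose interval is the widest of the 9 relative to its level.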

Other observations

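Other secreted factors that act on vessels were also present in the library. In a list of 17 such genes, 11 had at least 10 reads and 5 lay above the median TPM of 24.4, against 52.2% and 26.1% of all protein-coding genes. Thbs1, which encodes thrombospondin 1, an inhibitor of angiogenesis, had 40950 reads and a TPM of 1286 (1273 to 1298), above each of the 9 VEGF, PDGF and neuropilin genes. The matricellular genes Cyr61 and Ctgf followed with 621 and 299.9. Adm, which encodes the vasoactive peptide adrenomedullin, and Hgf, hepatocyte growth factor, had 0 reads each.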
